A study of Mus musculus with 9 samples.

Results

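The 10 genes described here, Ly6g, Retnlg, Csf3r, Clec4d, Clec4e, Trem1, Fpr1, Fpr2, Il1r2 and Mpo, are commonly used as markers of neutrophils. They were taken from the deposited gene table by their gene names, and all 10 were found among its 29205 genes. RNA of the back skin of male BALB/c mice, aged 6 to 8 weeks and shaved and depilated on the back, was sequenced on day 13 in 3 groups of 3 libraries. The control group received no cream, and the labels name no vehicle arm. The IMQ group received 62.5 mg of 5% imiquimod (IMQ) cream daily for 5 days. Imiquimod is a Toll-like receptor agonist whose cream gives mouse skin psoriasis-like lesions. The LYS group received the same cream and Longkui Yinxiao soup (LYS), a decoction of several medicinal plants given into the stomach. The labels give no dose of LYS and do not say whether each library came from a separate mouse, so the p-values below measure the spread between these libraries.

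Neutrophils are short-lived white blood cells that form in the bone marrow under granulocyte colony-stimulating factor and enter inflamed tissue from the blood. Their azurophil granules, which hold myeloperoxidase, are filled at the promyelocyte stage, and the messages of these granule proteins are then shut off, while receptors for bacterial peptides, damaged cells and cytokines are made late and are carried into the tissue. Collections of neutrophils under and within the horny layer are a known feature of psoriatic skin. Several of the 10 genes, among them Csf3r, Clec4d, Clec4e, Trem1, Fpr1, Fpr2 and Il1r2, are also expressed by monocytes, macrophages or other skin cells.

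The summed counts of the 9 libraries ranged from 14658645 to 19609878, and 3 counts corresponded to 0.139 to 0.223 CPM (a count scaled to the library total, with TMM scaling between libraries). A group in which each library had 3 counts or fewer was regarded as at the floor. The skin genes Krt5, Krt14, Krt1, Krt10, Lor, Col1a1 and Col3a1 were present in all groups. In IMQ against control skin 5 of them rose and 2 fell, beside 24.1% and 26.9% of all genes tested. The neutrophil label was met only in part. Ly6g, the gene that most strictly marks mouse neutrophils, reached at most 16 counts in a library, and Mpo was lower in IMQ skin than in control skin, against the direction of the other members. In whole skin, fewer cells of a type and less RNA per cell cannot be told apart.

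The comparison of IMQ with control skin addressed what the cream did to these genes. Among the 10 genes, 9 had enough counts for the test. Of these, 8 rose (Trem1, Retnlg, Clec4d, Clec4e, Fpr2, Fpr1, Csf3r and Il1r2) and 1, Mpo, fell, at an adjusted p below 0.05 and an absolute log2 fold change over 0.58. Over all 15976 genes tested, 24.1% were called higher and 26.9% lower. The median log2 fold change of the 9 tested members was 3.55, beside -0.06 over all genes tested. The CPM of the IMQ libraries lay above those of the control libraries for 9 of the 10 genes, Ly6g included, and below them for Mpo. Such non-overlap was found for 34.1% of all genes tested in the higher direction and for 35.9% in the lower direction. For Ly6g it rested on the scaling, since IMQ 1 and control 3 each had 2 counts, and in FPKM IMQ 1 was lower (0.118 against 0.124). For Il1r2, IMQ 1 lay within the control range in FPKM (25.1 against 23.3 to 25.4).

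**Figure D1:**
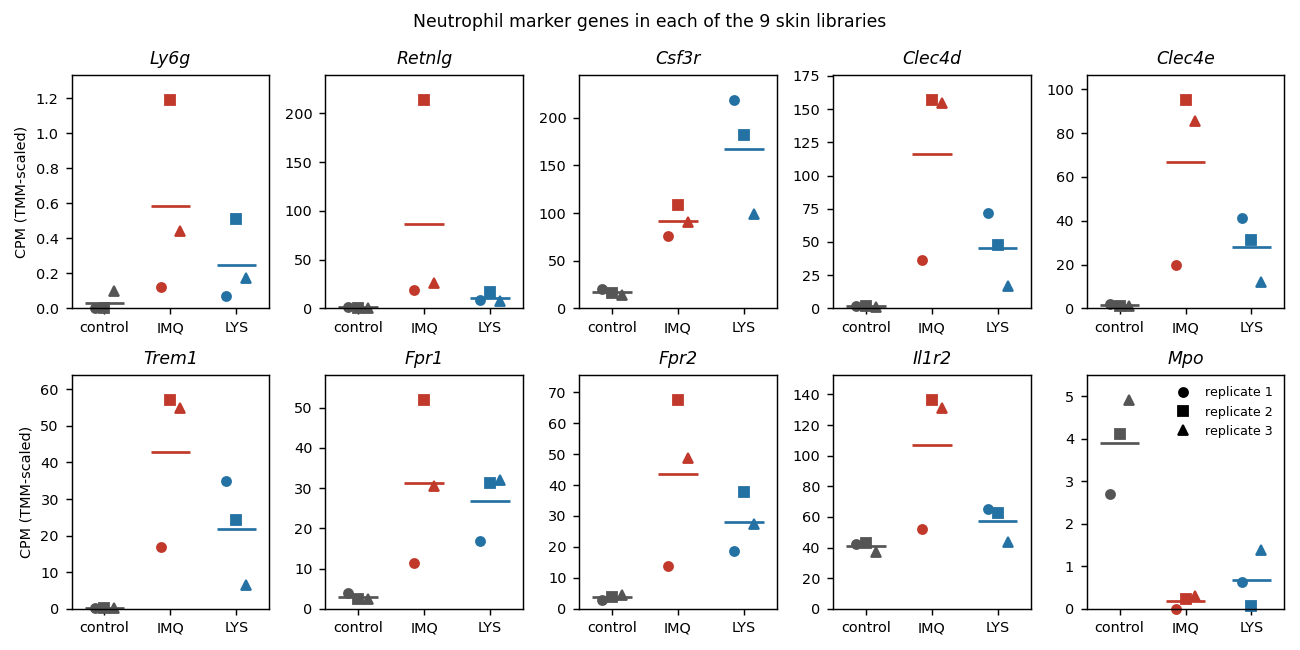
Level of each gene in CPM (y axis, TMM-scaled, linear from 0, with its own range for each gene) in the control, IMQ and LYS groups (x axis). Each point is 1 library with its replicate number as the shape, the line is the mean of 3 libraries, Mpo alone was highest in control skin, and IMQ 1 was the lowest IMQ library in all 10 panels.

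The surface marker Ly6g and the secreted protein Retnlg are the most neutrophil-restricted of the list. Ly6g (chromosome 15, 75155240 to 75159126, plus strand, GRCm38) belongs to the Ly6 family of small membrane-anchored proteins and is the target of the antibody used to stain or deplete mouse neutrophils. It had 0, 0 and 2 counts in control 1, 2 and 3, then 2, 16 and 6 counts in IMQ 1, 2 and 3, and 1, 9 and 3 counts in LYS 1, 2 and 3. The control group was therefore at the floor. The highest library was IMQ 2, and the LYS range overlapped with both other groups. The ratio of the summed counts, scaled for depth, was 17.3 for IMQ over control (24 against 2 counts, 95% counting interval 4.30 to 151) and 8.26 for LYS over control (13 against 2 counts, interval 1.87 to 75.4), and these intervals cover counting error only. Ly6g was left out of the main test by the filter on low counts. Without that filter it was called higher in IMQ skin (log2 fold change 3.85, adjusted p = 0.0173), and DESeq2 gave 4.19 (adjusted p = 0.016). For LYS against control without the filter it was not called (2.74, adjusted p = 0.183). Reads of the closely related Ly6 genes may be split between copies by the authors' counting. Other Ly6 genes moved in both directions for IMQ against control. Ly6c1 was at -1.92 (adjusted p = 3.6e-04) and Ly6c2, a monocyte marker, at -2.58 (adjusted p = 5.5e-04), while the epithelial Ly6d rose (log2 fold change 1.82, adjusted p = 2.6e-04).

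Retnlg (chromosome 16, 48872621 to 48874496, plus strand) encodes resistin-like gamma, a small secreted protein of neutrophils and bone marrow. Its level was 1.35, 0.878 and 0.877 CPM in control 1, 2 and 3, and 18.8, 214 and 26.0 CPM in IMQ 1, 2 and 3. In LYS 1, 2 and 3 it was 8.86, 17.1 and 7.51 CPM. The 3 groups did not overlap in CPM, and IMQ 2 stood far above the other IMQ libraries. Retnlg rose in IMQ skin (log2 fold change 6.35, SE 1.09, 81.6-fold, adjusted p = 0.00145). Without IMQ 2 the log2 fold change was 4.43, still called (adjusted p = 1.2e-04). The relatives of Retnlg fell, with log2 fold changes of -2.38 for Retn, the fat-cell hormone resistin (adjusted p = 9.5e-04), and -4.30 for Retnla, a gene of alternatively activated macrophages and other cells (adjusted p = 8.5e-04).

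Csf3r (chromosome 4, 126024550 to 126044440, plus strand) encodes the receptor for granulocyte colony-stimulating factor, the main growth factor of the lineage. It measured 20.9, 16.3 and 14.5 CPM in the control libraries, 76.2, 108 and 90.8 CPM in IMQ 1, 2 and 3, and 219, 182 and 98.8 CPM in LYS 1, 2 and 3. It was the only one of the 10 genes whose highest library was a LYS library, and LYS 3 fell within the IMQ range in CPM. Csf3r rose in IMQ skin (log2 fold change 2.40, SE 0.18, 5.29-fold, adjusted p = 3.3e-05). Its spread among IMQ libraries was small, at 91.7 ± 16.0 CPM (SD, n = 3). The ligand gene Csf3 was at the floor in control skin (0, 0 and 3 counts) and measured 25, 129 and 65 counts in IMQ 1, 2 and 3, a called rise (adjusted p = 9.8e-04). Below the receptor, Jak2 was not called (log2 fold change 0.06, adjusted p = 0.686), while Stat3, the transcription factor of this pathway, rose (1.43, adjusted p = 7.2e-05), as did its feedback inhibitor Socs3 (3.09, adjusted p = 6.1e-05). Stat3 and Socs3 also respond to many other cytokines.

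Clec4d and Clec4e are neighbours on chromosome 6 (123262111 to 123275265, plus strand, and 123281789 to 123289870, minus strand). They encode the C-type lectin receptors MCL and Mincle, which bind glycolipids of mycobacteria and fungi, and Mincle also binds a protein released by dead cells. Clec4d measured 1.79, 1.62 and 1.07 CPM in control skin, 36.8, 157 and 155 CPM in IMQ 1, 2 and 3, and 71.8, 47.8 and 17.3 CPM in LYS 1, 2 and 3. Clec4e measured 1.84, 0.970 and 1.27 CPM in control skin, 20.04, 95.3 and 85.8 CPM in IMQ skin and 41.4, 31.4 and 12.0 CPM in LYS skin, in the same order of libraries. For both genes, IMQ 2 and IMQ 3 were close to each other and above all LYS libraries, while IMQ 1 lay within the LYS range. Both rose in IMQ skin, Clec4d by a log2 fold change of 6.26 (SE 0.61, 76.8-fold, adjusted p = 1.0e-04) and Clec4e by 5.61 (SE 0.63, 48.8-fold, adjusted p = 1.9e-04). The count of Clec4d over that of Clec4e lay between 1.44 and 1.84 in the 6 IMQ and LYS libraries. The shared signalling genes moved less. Fcer1g, their adaptor, was not called (0.51, adjusted p = 0.177), Syk, the kinase below it, rose by 0.59 (adjusted p = 0.0164), and Card9 and Malt1, which carry the signal to NF-kB, rose by 1.88 (adjusted p = 1.0e-04) and 1.37 (adjusted p = 5.8e-04). Clec4n, the Dectin-2 gene of the same cluster, rose as well (2.09, adjusted p = 1.2e-04), while Clec4a1, Clec4a2, Clec4a3 and Clec4b1 were not called. Clec4a4 had low counts, with 3, 3 and 3 in control 1, 2 and 3 and 13, 10 and 15 in IMQ 1, 2 and 3.

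The 250 bases before the start sites were searched for motifs of the myeloid factors PU.1 (core letters GAGGAAG) and C/EBP (TTGCNNAA) and for the TATA letters (TATAAA), on both strands. All 10 genes had a window in the RefSeq promoter table (GRCm38.p6). PU.1 letters were found for 4 of 10 genes (Ly6g, Csf3r, Clec4d and Mpo), against 10.6% of 32851 windows of that length, and C/EBP letters for 3 of 10 (Ly6g, Retnlg and Clec4e), against 9.56%. TATA letters were found for 4 of 10 (Ly6g, Clec4e, Fpr1 and Fpr2), against 12.4%. These matches are descriptions and not binding sites, and Mpo, which fell, held PU.1 letters as Csf3r and Clec4d did. The window of Trem1, the largest rise, held none of these letters and is not shown. Those of the other 3 of the 4 largest rises are shown, and the capitals mark the PU.1 and C/EBP letters. They are Retnlg (chr16:48872358-48872607, plus strand), Clec4d (chr6:123261857-123262106, plus strand) and Clec4e (chr6:123289872-123290121, minus strand).
Retnlg: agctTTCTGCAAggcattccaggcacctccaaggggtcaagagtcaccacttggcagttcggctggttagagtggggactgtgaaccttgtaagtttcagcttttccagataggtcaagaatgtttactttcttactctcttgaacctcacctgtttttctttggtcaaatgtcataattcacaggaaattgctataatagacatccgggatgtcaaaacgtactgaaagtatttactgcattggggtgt
Clec4d: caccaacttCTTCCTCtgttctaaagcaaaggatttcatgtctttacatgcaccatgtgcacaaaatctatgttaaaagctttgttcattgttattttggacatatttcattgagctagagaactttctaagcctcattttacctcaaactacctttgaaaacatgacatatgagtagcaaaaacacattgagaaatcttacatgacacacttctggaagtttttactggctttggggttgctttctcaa
Clec4e: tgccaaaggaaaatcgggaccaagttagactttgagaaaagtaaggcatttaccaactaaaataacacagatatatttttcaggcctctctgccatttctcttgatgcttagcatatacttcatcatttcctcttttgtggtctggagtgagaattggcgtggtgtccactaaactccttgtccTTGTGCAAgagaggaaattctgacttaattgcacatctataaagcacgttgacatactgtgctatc

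Trem1 (chromosome 17, 48232768 to 48246924, plus strand) encodes a receptor that amplifies inflammatory signals of neutrophils and monocytes through the adaptor Tyrobp (DAP12). It had 6, 2 and 4 counts in control 1, 2 and 3, which is 0.290, 0.0924 and 0.195 CPM. It reached 16.9, 57.1 and 54.9 CPM in IMQ 1, 2 and 3 and 34.8, 24.4 and 6.54 CPM in LYS 1, 2 and 3. No library of IMQ or LYS skin came near the control range, and the IMQ and LYS ranges overlapped. Trem1 had the largest fold change among the tested members (log2 fold change 7.75, SE 0.64, 215-fold, adjusted p = 4.9e-05), measured against few control counts. Tyrobp rose far less (0.83, adjusted p = 0.0205), and Pglyrp1, a granule protein and proposed ligand of Trem1, rose by 2.72 (adjusted p = 3.3e-04). In the Trem gene cluster, Trem3 (4.87, adjusted p = 5.2e-04), Treml2 (2.60, adjusted p = 0.00515) and Treml4 (3.02, adjusted p = 9.7e-04) rose, while the macrophage receptor Trem2 was not called (-0.56, adjusted p = 0.232). Control 1, 2 and 3 had few counts of the risers, with 1, 6 and 3 for Trem3, 9, 1 and 8 for Treml2 and 5, 13 and 9 for Treml4. Trem1 overlaps the gene AC241601.2 on the other strand, and whether strand was used in counting is not given in the sources used here, so the reads of such a pair cannot be told apart.

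Fpr1 and Fpr2 encode receptors that draw neutrophils towards formylated peptides of bacteria and mitochondria, and both lie on chromosome 17 (17876471 to 17883940, minus strand, and 17887824 to 17893952, plus strand). Fpr1 measured 3.86, 2.45 and 2.53 CPM in control skin, 11.4, 51.9 and 30.5 CPM in IMQ 1, 2 and 3, and 16.8, 31.2 and 32.0 CPM in LYS 1, 2 and 3. Fpr2 measured 2.75, 3.65 and 4.53 CPM in control skin, 13.8, 67.5 and 48.9 CPM in IMQ skin and 18.6, 37.9 and 27.4 CPM in LYS skin. Control skin was lowest for both, and all 3 LYS libraries lay within the IMQ range. Fpr1 rose by a log2 fold change of 3.39 (SE 0.52, 10.5-fold, adjusted p = 8.2e-04) and Fpr2 by 3.55 (SE 0.54, 11.7-fold, adjusted p = 8.1e-04). Among the proposed ligands of Fpr2, the acute-phase genes Saa1 (3.82, adjusted p = 0.00479) and Saa3 (2.50, adjusted p = 0.0429) rose, whereas Camp, the cathelicidin gene, was not called (0.13, adjusted p = 0.833) and Anxa1 stayed just below the fold threshold (0.56, adjusted p = 0.016). Fpr2 overlaps Fpr3 on the same strand, so reads shared between these related genes make its count less certain.

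Il1r2 (chromosome 1, 40074079 to 40125231, plus strand) encodes the decoy receptor that binds interleukin-1 without passing on a signal. Il1r2 had the highest level of the members in control skin, at 42.5, 42.9 and 37.1 CPM. It measured 52.3, 136 and 131 CPM in IMQ 1, 2 and 3 and 65.1, 62.8 and 43.4 CPM in LYS 1, 2 and 3. IMQ 2 and IMQ 3 were above all other libraries, and IMQ 1 lay among the LYS libraries. It had the smallest called rise of the list (log2 fold change 1.37, SE 0.32, 2.59-fold, adjusted p = 0.00632). The cytokine genes rose more, Il1b from 1.41 to 1079 mean CPM (9.56, adjusted p = 3.0e-05) and Il1a by 3.73 (adjusted p = 4.9e-05). Il1rn, which encodes the receptor antagonist, rose by 3.30 (adjusted p = 1.9e-05). The signalling receptor Il1r1 fell (-1.64, adjusted p = 2.7e-04) and its partner Il1rap rose (1.69, adjusted p = 2.6e-05). Il1r2 overlaps Gm16894 on the other strand and Gm37347 on the same strand.

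Mpo (chromosome 11, 87793581 to 87804413, plus strand) encodes myeloperoxidase, the enzyme of azurophil granules that makes hypochlorous acid. It had 56, 89 and 101 counts in control 1, 2 and 3, then 0, 3 and 4 counts in IMQ 1, 2 and 3, and 9, 1 and 24 counts in LYS 1, 2 and 3. Control skin was highest and did not overlap with either other group, while the IMQ and LYS ranges overlapped. Mpo fell in IMQ skin (log2 fold change -4.54, SE 0.63, adjusted p = 5.1e-04). Prtn3, which encodes proteinase 3, was the only 1 of 6 genes of the azurophil and promyelocyte list with enough counts for the test, and it fell as well, with 211, 281 and 158 counts in control skin and 14, 21 and 4 counts in IMQ skin (-3.52, adjusted p = 3.6e-04). Elane, the elastase gene, had 14, 5 and 9 counts in control skin and 2, 3 and 0 counts in IMQ skin. Mpo overlaps Gm11505 on the other strand.

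**Figure D2:**
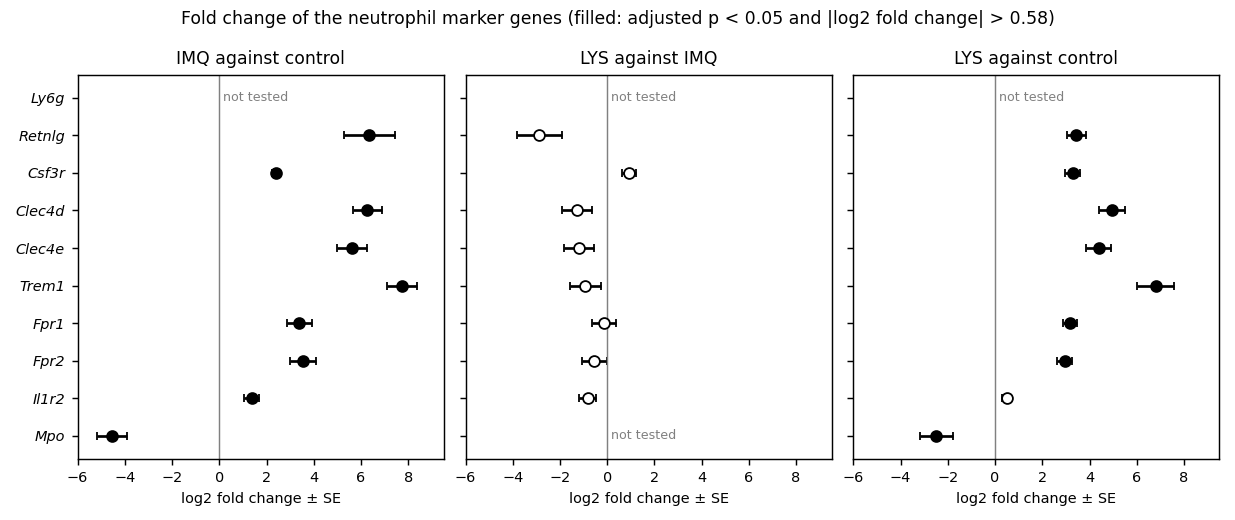
Log2 fold change (x axis) of each gene (y axis) in the 3 comparisons, with bars of 1 SE, from edgeR. Filled points passed both thresholds: 8 genes higher and Mpo lower in IMQ against control, none in LYS against IMQ, and 7 genes higher and Mpo lower in LYS against control.

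The 10 genes largely shared the order of the IMQ libraries but not that of the LYS libraries. IMQ 1 was the lowest IMQ library for 10 of 10 genes, and IMQ 2 was the highest for 9 of 10. The summed level of the 10 genes was 67.1 to 77.9 CPM in control skin, 246 to 889 CPM in IMQ skin and 246 to 477 CPM in LYS skin. In LYS skin the libraries changed places between genes. LYS 1 was the highest LYS library for Csf3r, Clec4d, Clec4e, Trem1 and Il1r2 and the lowest for Ly6g, Fpr1 and Fpr2, and LYS 3 was the lowest for 6 genes. The count of Csf3r over that of Clec4d was 10.1 to 13.5 in control skin, 2.07, 0.688 and 0.586 in IMQ 1, 2 and 3, and 3.05, 3.80 and 5.72 in LYS 1, 2 and 3. Of 5 count ratios between members that were computed, this was the one in which none of the 3 groups overlapped.

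**Figure D3:**
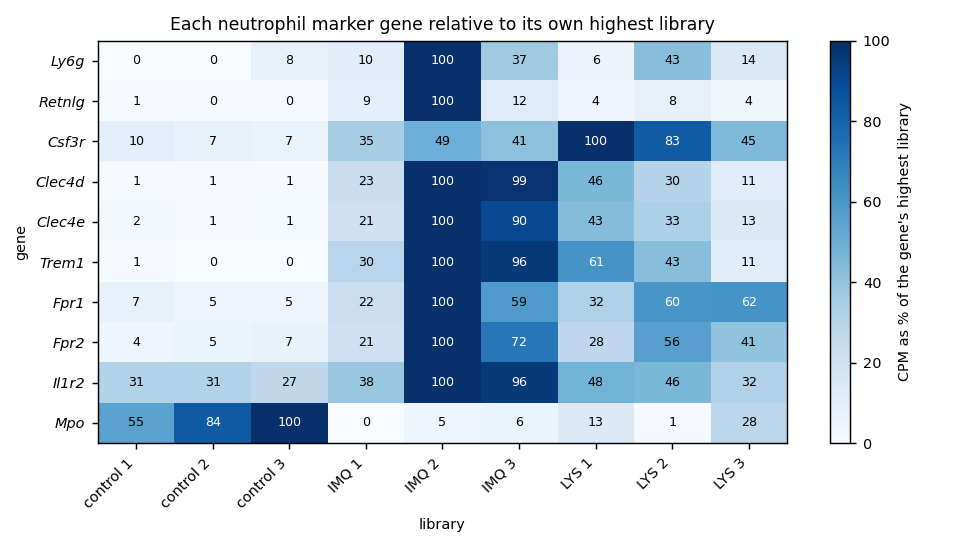
CPM of each gene (rows) in each library (columns) as a percentage of that gene's highest library, with the colour scale from 0 to 100%. IMQ 2 held the highest level for 8 of the 10 genes, LYS 1 for Csf3r and control 3 for Mpo.

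Levels were compared between genes in FPKM, which divides by gene length. In control skin, Il1r2 was highest with 24.5 ± 1.10 FPKM (SD, n = 3), followed by Csf3r with 5.47 ± 0.989 FPKM, and these neighbours did not overlap. Then came Fpr2 (3.24 FPKM), Fpr1 (2.56 FPKM), Retnlg (2.00 FPKM), Mpo (1.32 FPKM) and Clec4d (1.07 FPKM), with overlap between neighbours in this run. Clec4e (0.314 FPKM), Trem1 (0.0741 FPKM) and Ly6g (0.0413 FPKM) were lowest. In IMQ skin, Retnlg had the highest mean (116 ± 146 FPKM, most of it from IMQ 2), before Clec4d (58.9 ± 32.8 FPKM), Il1r2 (45.7 ± 17.9 FPKM), Fpr2, Csf3r, Fpr1, Trem1 and Clec4e (10.9 FPKM), and neighbours overlapped from Retnlg down to Clec4e. Ly6g (0.498 FPKM) and Mpo (0.0402 FPKM) stood apart below them. In LYS skin Csf3r was first (47.6 ± 15.4 FPKM), then Il1r2 (31.1 FPKM), Clec4d (29.1 FPKM), Fpr2 (22.7 FPKM), Fpr1 (21.3 FPKM) and Retnlg (19.7 FPKM), with overlap between neighbours in this run. Trem1 (7.45 FPKM) and Clec4e (5.83 FPKM) followed, and Ly6g (0.281 FPKM) and Mpo (0.213 FPKM) were again last.

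The comparison of LYS with IMQ skin addressed whether the decoction altered these genes in IMQ-treated mice. None of the 8 tested members was called by edgeR, and 2 of them, Retnlg and Csf3r, had an unadjusted p below 0.05. No gene of the 15460 tested was called either (0% higher and 0% lower), while 19.3% of genes were higher and 15.9% lower at an unadjusted p below 0.05. Of the 8 genes, 7 had a log2 fold change below 0 and 1, Csf3r, above 0, with a median of -0.88 beside 0.04 over all genes. In CPM, Retnlg was the single gene of the 10 whose LYS libraries did not overlap with the IMQ libraries, being lower in all 3. Non-overlap in CPM was found for 22.1% of all genes tested in the lower direction and for 16.8% in the higher direction. In FPKM, Retnlg overlapped (30.4 in LYS 2, 29.1 in IMQ 1). Csf3r did not overlap in FPKM, with 30.1 to 59.3 in LYS and 19.3 to 23.7 in IMQ skin.

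Retnlg had a log2 fold change of -2.87 (SE 0.96, adjusted p = 0.0891) in LYS against IMQ, and its difference rested largely on IMQ 2, since it was -0.95 without that library (adjusted p = 0.234). Csf3r had a log2 fold change of 0.92 (SE 0.28, 1.89-fold, adjusted p = 0.0769). Monocyte and macrophage markers summed to 1833 to 3451 CPM in LYS skin and 1433 to 1954 CPM in IMQ skin, with overlap. Among them, Adgre1 measured 160, 357 and 460 CPM in LYS 1, 2 and 3. The part of these cells in the Csf3r value was not tested. DESeq2, a fit without the filter on low counts and a fit of all 9 libraries together called both of these genes, Retnlg lower (adjusted p = 0.0332 to 0.0376) and Csf3r higher (adjusted p = 0.0209 to 0.05). The lectin receptors had values of -1.29 (SE 0.64, adjusted p = 0.192) for Clec4d and -1.19 (SE 0.62, adjusted p = 0.213) for Clec4e. For Trem1 the value was -0.92 (SE 0.64, adjusted p = 0.33) and for Fpr2 it was -0.55 (SE 0.53, adjusted p = 0.481). Fpr1 was nearest to 0, at -0.14 (SE 0.51, adjusted p = 0.858), and its sign turned without IMQ 2 (0.41). Il1r2 had -0.83 (SE 0.35, adjusted p = 0.143) and was called lower in 1 of the alternatives run, the fit without IMQ 1 (-1.17, adjusted p = 0.0406). Mpo and Ly6g were left out of this fit by the filter on low counts. Without the filter neither was called, at 2.09 (adjusted p = 0.298) for Mpo and -1.06 (adjusted p = 0.548) for Ly6g, and with all 9 libraries in one fit Mpo had 2.03 (adjusted p = 0.171).

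Each IMQ library was set against each LYS library. LYS 1 was higher than IMQ 1 for 8 of the 10 genes, LYS 2 for 9 and LYS 3 for 5. Against IMQ 2, LYS 1 was higher for 2 genes, LYS 2 for 1 and LYS 3 for 1, and against IMQ 3 these numbers were 2, 3 and 3. For 9 of the 10 genes the LYS and IMQ ranges overlapped in CPM.

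Between LYS and control skin, 7 of 9 tested genes were called higher and Mpo lower, against 15.1% of all genes called higher and 12.9% lower. This comparison shares its control libraries with that of IMQ against control and its LYS libraries with that of LYS against IMQ. The called rises in log2 fold change were 6.80 for Trem1 (SE 0.78, adjusted p = 0.00133), 4.94 for Clec4d (SE 0.56, adjusted p = 0.00127), 4.38 for Clec4e (SE 0.51, adjusted p = 0.00138) and 3.43 for Retnlg (SE 0.40, adjusted p = 0.00133). Csf3r rose by 3.28 (SE 0.32, adjusted p = 7.3e-04), Fpr1 by 3.18 (SE 0.31, adjusted p = 7.8e-04) and Fpr2 by 2.94 (SE 0.31, adjusted p = 9.7e-04). Il1r2 was not called (0.49, SE 0.18, adjusted p = 0.0723), and it was called without LYS 3 (0.66, adjusted p = 0.0107). Its 3 LYS libraries lay above the control libraries in CPM, by little (43.4 in LYS 3, 42.9 in control 2). In FPKM, LYS 3 (25.0) lay within the control range (23.3 to 25.4). Mpo fell (-2.50, SE 0.70, adjusted p = 0.0302), a call that was lost when any 1 of the control libraries was left out (adjusted p = 0.0703 to 0.0913). Groups did not overlap in CPM for 8 of the 10 genes in the higher direction and for Mpo in the lower direction, against 25.0% and 25.3% of all genes. Ly6g overlapped between LYS and control skin.

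Other genes of the pathways and of neutrophils were read from lists. Of 10 ligand genes of the member receptors, 7 rose and 0 fell in IMQ against control skin, and of 14 adaptor and signalling genes 8 rose and 1 fell. Of 22 tested relatives of the members, 9 rose and 8 fell. Over all genes tested in that comparison, 24.1% were called higher and 26.9% lower. Among 14 further neutrophil genes, 12 rose and 1 fell in IMQ against control skin (median log2 fold change 4.27). Cxcr2, the chemokine receptor that brings neutrophils into tissue, measured 3.77, 3.93 and 4.33 CPM in control skin, 77.3, 130 and 126 CPM in IMQ 1, 2 and 3 and 110, 62.2 and 31.8 CPM in LYS 1, 2 and 3. It rose in IMQ skin (4.78, adjusted p = 8.4e-06) and was not called in LYS against IMQ (-0.65, adjusted p = 0.292). S100a8 and S100a9, the calprotectin subunits, which inflamed keratinocytes also make, rose by 9.60 (adjusted p = 9.7e-05) and 9.75 (adjusted p = 3.7e-05). Lrg1, also a gene of endothelium and liver, fell (-1.61, adjusted p = 0.00154), and Pirb was not called (-0.15, adjusted p = 0.441).

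The specific and gelatinase granules are filled after the azurophil granules. Of 11 tested genes on the list for them, 8 rose and 1 fell in IMQ against control (median 2.89), beside 24.1% and 26.9% of all genes tested. The list was not limited to granule contents, since it also held Padi4 and Ifitm6. Camp, on the same list, was not called. Mmp8, the neutrophil collagenase (5.73, adjusted p = 4.9e-04), Cd177 (5.48, adjusted p = 1.4e-04) and Olfm4 (6.65, adjusted p = 4.8e-04) were among the largest rises, measured against few control counts. Control 1, 2 and 3 had 6, 13 and 5 counts for Mmp8 and 1, 2 and 7 for Cd177. Olfm4 was at the floor there, with 3, 2 and 2 counts. Hp, the haptoglobin gene that fat and liver cells also express, fell (-2.51, adjusted p = 0.00201). Of 6 NADPH oxidase genes, whose product makes superoxide in phagocytes, 2 rose and 0 fell, a share near the 24.1% of all genes called higher, with Ncf4 at 1.45 (adjusted p = 0.0025), and Cybb, the catalytic subunit, was not called (-0.63, adjusted p = 0.0578). In LYS against control, 12 of 13 tested genes of the first list, 8 of 11 of the second and 5 of 6 of the third were called higher, and 0 were called lower. Over all genes tested there, 15.1% were called higher and 12.9% lower. In LYS against IMQ the medians of the 3 lists were -0.79, 0.03 and 0.78, and edgeR on these 6 libraries called 0 of their genes. DESeq2 called 2 genes of the first list higher and 5 lower, 2 of the second higher and 4 of the third higher. Without the filter on low counts, edgeR called 2 of the first list higher and 1 lower, 2 of the second higher and 4 of the third higher. With all 9 libraries in one fit, these counts were 2 higher and 2 lower, 2 higher and 3 higher. Over all genes, DESeq2 called 1951 higher and 1394 lower of 27399 with a p-value. Some of these, Ly6g and Mpo among them, had no adjusted p and could not be called. The fit without the filter called 1453 higher and 966 lower of 27402, and the fit of all 9 libraries called 1627 higher and 1413 lower of 16392.

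Markers of other cells moved in these comparisons too. Of 13 monocyte and macrophage genes, 2 rose and 6 fell in IMQ against control, beside 24.1% and 26.9% of all genes tested. Cd14 was at 4.15 (adjusted p = 2.8e-04) and Mrc1 at -1.66 (adjusted p = 0.00318). The summed level of the 13 genes in control skin was 1453 to 2019 CPM. In LYS against IMQ 11 of the 13 had a log2 fold change above 0 (median 1.45), with Adgre1 at 1.59 (adjusted p = 0.0606). By edgeR on these 6 libraries 0 were called, while 9 were called higher by DESeq2, 8 without the filter on low counts, 8 with all 9 libraries in one fit, 3 without IMQ 1 and 11 without LYS 1. Over all genes tested, the higher calls in the same order were 1951 of 27399, 1453 of 27402, 1627 of 16392, 1077 of 15840 and 2370 of 15895. The 27399 genes of DESeq2 include genes without an adjusted p, which could not be called. All 5 tested mast cell and basophil genes fell in IMQ skin (median -1.62), as did 6 of 8 red blood cell and platelet genes (median -1.70), whose summed level was 383 to 978 CPM in control, 160 to 339 CPM in IMQ and 517 to 794 CPM in LYS skin. Of 8 T cell genes, 5 rose and 1 fell (median 1.0). Of 4 tested eosinophil genes, 1 rose and 1 fell, near the shares over all genes tested (24.1% called higher and 26.9% lower). The part of these cells and of blood in the members' values was not tested.

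**Figure D4:**
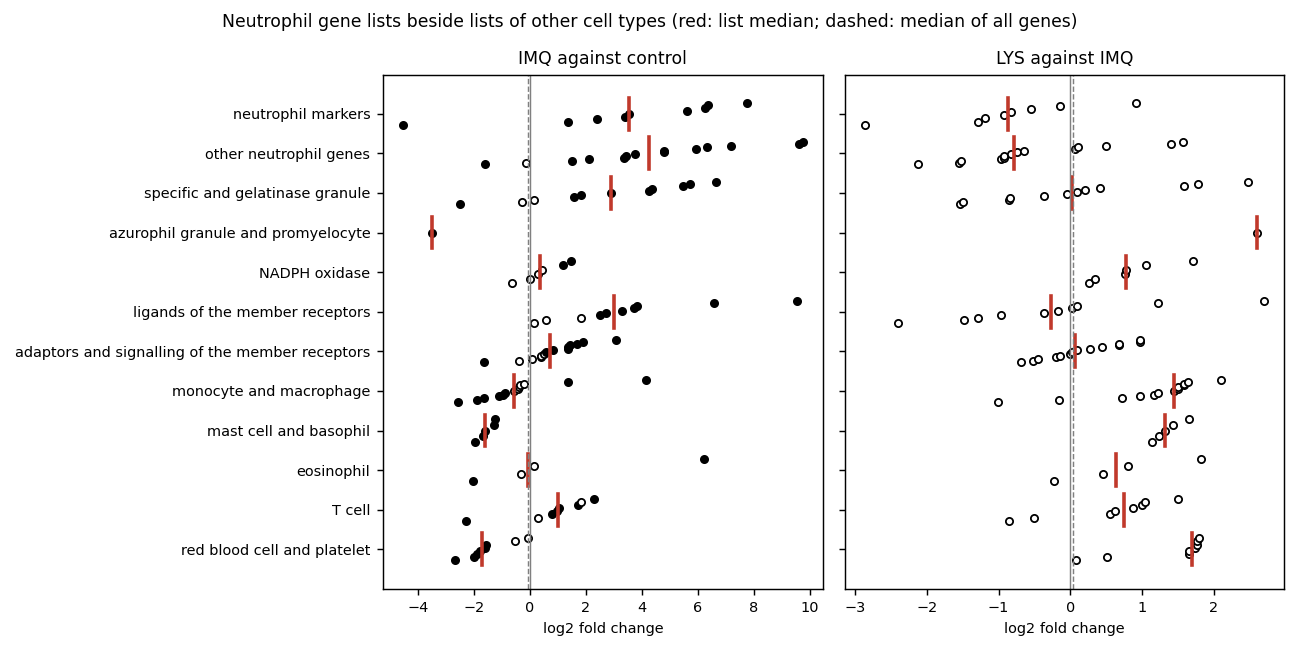
Log2 fold change (x axis) of the genes of each list (y axis) for IMQ against control and LYS against IMQ, each point being 1 tested gene, filled where it passed both thresholds. The red bar is the list's median and the dashed line the median of all genes; the neutrophil markers had medians of 3.55 and -0.88.

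The genes whose profile over the 9 libraries was most like the mean scaled profile of the 10 genes were 9830107B12Rik (Pearson r = 0.985), Tnf (0.984), Zbtb40 (0.981), Cdk2ap2 (0.979) and Ccndbp1 (0.979), among 14755 genes ranked. These values describe libraries that share the group differences and carry no test. Tnf, the gene of a central inflammatory cytokine, measured 0.830 ± 0.184 CPM in control, 12.7 ± 6.22 CPM in IMQ and 6.28 ± 0.629 CPM in LYS skin (SD, n = 3).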

How the data were processed

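RNA of 9 back skin libraries was extracted with Trizol and prepared with the NEBNext Ultra RNA kit. The authors deposited 1 table with raw read counts and FPKM per gene, per the file headers; the FPKM used the exon lengths of GENCODE M21 for 98.4% of 29128 genes. The submitters' processing notes name GRCm38, HISAT2 and HTSeq 0.13.5 with no role, and strand use is not given in the sources used here. 0 columns were without a sample. Each comparison was fitted on the 6 libraries of its groups and the whole table with edgeR 4.0.16 in R 4.3.3 (TMM, filterByExpr, quasi-likelihood test, Benjamini-Hochberg adjustment over all genes tested), and genes were called at the thresholds of the study (adjusted p below 0.05, log2 fold change beyond 0.58 either way). Medians, ranges and counts describe lists, with no set test. FPKM served to order levels between genes and, beside CPM, to describe the overlap of groups for some genes. Libraries of a group differed by more than counting noise. Likeness used log2(CPM + 1) of genes with a mean of at least 1 CPM.

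The members and lists were chosen with earlier results of these data known. The genes named are the 10 members, list genes and the 5 genes most like the members. Of the list genes, 8 were not analysed here (BC100530, Gm5483, Fpr3, Fpr-rs3, Fpr-rs4, Fpr-rs6, Fpr-rs7 and Retnlb). The values of some list genes are not reported here. Promoter windows came from RefSeq. Alternatives were DESeq2 1.42.0, other scalings, no filter, a single fit of 9 libraries, a fold threshold of 1, a replicate block and leaving out each library. The fit was tested on simulated data. Plots used matplotlib 3.10.9 (Python 3.11.15).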

Additional observations from a re-analysis of the deposited data

How the results depend on the processing

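The number of members called in IMQ against control was 9 to 10 under every alternative run, with Ly6g as the tenth under DESeq2 and without the filter. For LYS against IMQ, the 0 members called became 2 under DESeq2, without the filter and with all 9 libraries in one fit, and 0 to 1 with single libraries left out. The 0 genes called became 3345 under DESeq2, 2419 without the filter, 3040 with all 9 libraries, and 0 to 4262 with single libraries left out (4262 without LYS 1 and 1873 without IMQ 1). For LYS against control, the 4476 genes called became 2910 at an absolute log2 fold change over 1 and 2579 to 5072 with single libraries left out. Fpr1 in LYS against IMQ, not called at -0.14, turned to 0.16 when only library totals were used for scaling, 0.02 with a replicate block, and -0.55 to 0.41 with single libraries left out (0.41 without IMQ 2 and 0.11 without LYS 1). Scaling by library totals moved the median of all genes from -0.06 to -0.51 in IMQ against control, and the share of higher calls there from 47.3% to 25.9%, while in LYS against control that share went from 53.9% to 41.5%. Of 338 single-gene values under the alternatives, 323 kept direction and call. Those at an absolute log2 fold change over 1 came from the main fit, so their direction could not change. Members untested in a main fit are not among the 338. The replicate numbers did not pair the libraries (correlations of same-numbered deviations from -0.46 to 0.2, and 0 to 3 of 6 libraries correlating best with their own number). With the block, 9, 0 and 8 members and 8044, 0 and 3126 genes were called in the 3 comparisons. Low counts limited Ly6g (at most 16 in a library) and Mpo in IMQ skin (0, 3 and 4).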
